A study of Mus musculus with 4 samples.

Results

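The 39 genes described here encode the presynaptic machinery that loads, docks, fuses and retrieves synaptic vesicles. They were taken by name from a list, and all 39 matched 1 gene identifier each among the 37239 in the deposited tables. RNA came from the whole cochlea of mice at postnatal day 8, before the onset of hearing, and was sequenced in 4 libraries. The 2 wild-type libraries came from Ikzf2+/+ mice and the 2 others from Ikzf2cello/cello littermates, which carry 2 copies of the cello allele. Cello is a point mutation that changes helios, the zinc finger transcription factor encoded by Ikzf2, in every cell and not in 1 cell type. The labels call the libraries biological duplicates and do not say whether a library held 1 cochlea or several. The p-values set the genotype difference against the spread between libraries of the same genotype, in these 4 libraries only.

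At a synapse, vesicles are filled with transmitter by a vesicular transporter, held at the active zone by large scaffold proteins, and primed by Munc13 proteins. Fusion is driven by the SNARE proteins of the vesicle and of the plasma membrane, is triggered by calcium sensors of the synaptotagmin family, and is followed by retrieval of the membrane through clathrin, dynamin and their partners. In the cochlea, spiral ganglion neurons carry this machinery to their terminals in the brainstem, and efferent axons carry it to terminals under the hair cells. Inner hair cells use a ribbon synapse with otoferlin and a separate vesicular glutamate transporter, Slc17a8. Neuronal mRNA is held largely in cell bodies, which for the spiral ganglion lie inside the cochlea and for the efferents lie in the brainstem.

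Each library held between 42152616 and 49719984 counted alignments, of which 70.0% to 72.8% lay in genes. The members were covered by between 80 reads (Syngr3 in wild-type replicate 1) and 8404 reads (Cplx1 in cello replicate 2), and every member had reads in every library. Ikzf2 itself stood at 22.9 and 18.5 CPM, the read count scaled to the counted alignments of the library, for wild-type, beside 17.7 and 16.9 CPM for cello, which does not check the genotype of a point mutation. For neuronal, Schwann cell and bone markers, summed levels were unequal even between libraries that share a genotype. The neuronal, Schwann cell and hair cell sums also lay apart by genotype. The part of genotype in these sums was not tested. The 16 neuronal markers gave sums of 337 and 769 CPM for wild-type and 957 and 1170 CPM for cello, and the 12 Schwann cell and myelin markers gave 1215, 2865, 4135 and 5063 CPM in the same order. The 10 hair cell markers summed to 313 and 309 CPM in wild-type and to 190 and 158 CPM in cello. Of these sums, Ocm alone gave 116 and 108 CPM in wild-type and 33.9 and 16.6 CPM in cello. The 5 bone markers gave 884, 931, 2205 and 468 CPM in the order wild-type replicates 1 and 2, cello replicates 1 and 2. Wild-type replicate 1 thus held the least nerve RNA, and cello replicate 1 the most bone RNA. In bulk tissue, fewer cells of a type and less RNA per cell cannot be told apart.

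**Figure D1:**
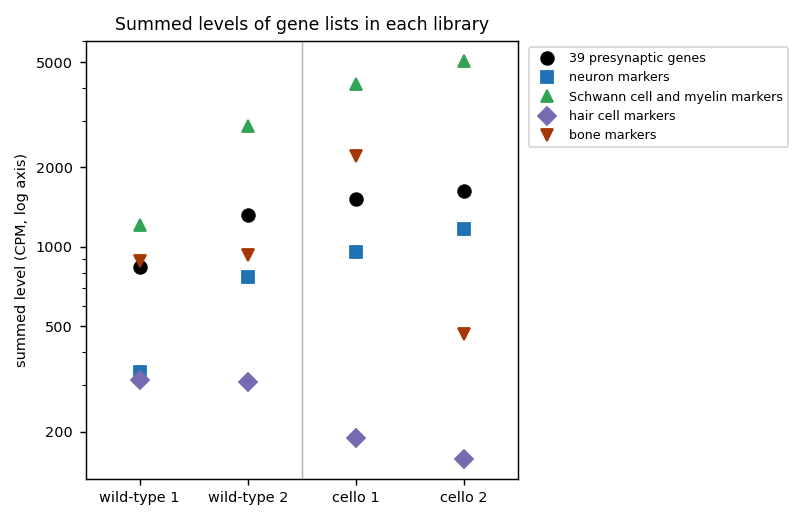
Summed level in CPM (vertical log axis) of the 39 presynaptic genes and of 4 marker lists in each of the 4 libraries, with 1 symbol per list and no error bar because each point is 1 library. The presynaptic sum ran from 842 CPM in wild-type replicate 1 to 1624 CPM in cello replicate 2, in the same order of libraries as the neuronal and Schwann cell sums.

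Most presynaptic genes had higher values in the cello cochlea, and most of that difference rested on wild-type replicate 1. Of the 39 members, 34 had a fitted log2 fold change (cello minus wild-type, on the log2(CPM + 0.5) scale) above 0, beside 43.4% of the 14721 genes tested. The median was 0.58 over the members and -0.03 over all genes tested, and it was 0.23 over the members without wild-type replicate 1. By limma with Benjamini-Hochberg adjustment over all genes, 0 members were called higher and 0 lower, beside 0% of all genes in each direction, and the smallest adjusted p of any member was 0.419. At an unadjusted limma p under 0.05, 10 members were higher and 1 was lower, beside 4.42% and 6.47% of all genes. On whole reads, edgeR called 0 members and DESeq2 called 2, Vamp1 as higher and Rab3b as lower, beside 0.847% and 0.589% of the genes for which it gave an adjusted p.

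In 26 members both cello libraries lay above both wild-type libraries, beside 16.9% of all genes tested, and in 2 members both lay below, beside 28.7%. Wild-type replicate 1 was the lowest library for 31 of the 39 members, beside 18.8% of all genes tested. The value in wild-type replicate 2 was more than 2 times that in replicate 1 for 13 members, beside 2.43% of all genes. For 32 members the gap between the 2 wild-type libraries was larger than the step from wild-type replicate 2 to the cello mean, beside 40.4% of all genes tested, with medians of 0.70 and 0.23 on the log2 scale. Without wild-type replicate 1, 31 members still lay above 0. For the 15 tested neuronal markers the medians were 1.43 within wild-type and 0.17 from wild-type replicate 2 to cello. Without wild-type replicate 1, 11 of the 15 lay above 0. Among them Snhg11 gave 33.7 and 51.7 CPM for wild-type against 159 and 145 CPM for cello. Its log2 fold change of 1.85, the highest of all genes tested, was 1.54 without that library. Of the 15 markers, 10 overlapped between genotypes, beside 8005 of the 14721 genes tested. The part that the amount of nerve in each library plays in the differences of the members was not tested.

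**Figure D2:**
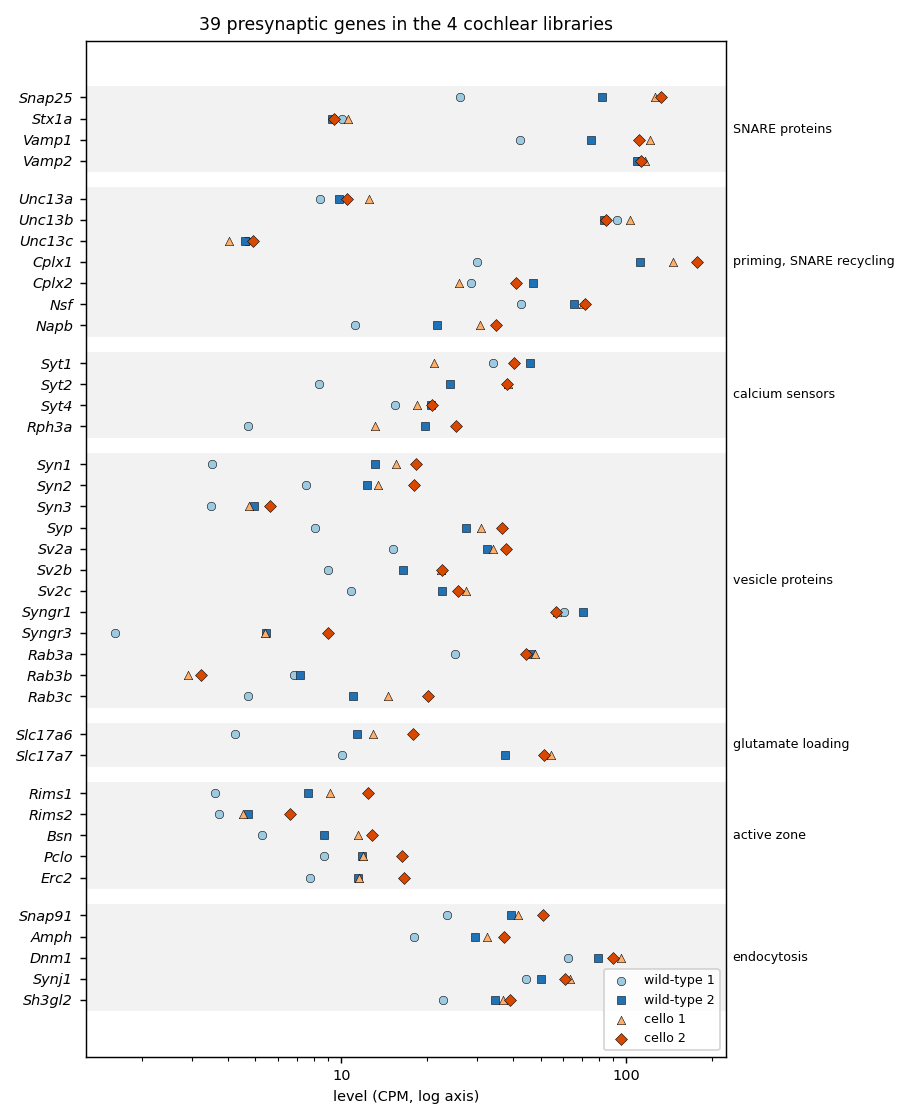
Level in CPM (horizontal log axis) of each of the 39 genes, grouped by role, with 1 symbol per library. For 31 genes the wild-type replicate 1 symbol lies furthest to the left, whereas for Rab3b both cello symbols lie to the left of both wild-type symbols.

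Start site sequences are shown for 4 members, chosen as the 2 that DESeq2 called (Vamp1 and Rab3b), the member with the highest level per kb (Cplx1) and the 1 member whose window held the TCAGCAC letters (Syn1). Each is the 250 bases before the annotated start in RefSeq on GRCm38.p6, 5′ to 3′ on the strand of the gene. Capitals mark matches on either strand to TGGGAA (the core letters bound by Ikaros family proteins), TGACG (the first letters of the cAMP response element), TCAGCAC (part of the element bound by the neuronal repressor REST) and GGGCGG (the GC box). The Vamp1 window is chr6:125215331-125215580 (plus strand), the Cplx1 window chr5:108550028-108550277 (minus), the Syn1 window chrX:20920919-20921168 (minus) and the Rab3b window chr4:108878820-108879069 (plus).
Vamp1: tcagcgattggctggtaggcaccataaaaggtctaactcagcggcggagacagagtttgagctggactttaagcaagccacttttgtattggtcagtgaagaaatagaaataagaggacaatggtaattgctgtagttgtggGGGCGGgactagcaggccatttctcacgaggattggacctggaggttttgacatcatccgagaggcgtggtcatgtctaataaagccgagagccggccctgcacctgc
Cplx1: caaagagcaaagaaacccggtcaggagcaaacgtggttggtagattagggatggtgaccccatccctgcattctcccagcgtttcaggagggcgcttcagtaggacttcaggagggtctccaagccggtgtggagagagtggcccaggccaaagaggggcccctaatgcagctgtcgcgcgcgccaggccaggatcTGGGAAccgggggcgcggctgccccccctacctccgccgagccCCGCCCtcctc
Syn1: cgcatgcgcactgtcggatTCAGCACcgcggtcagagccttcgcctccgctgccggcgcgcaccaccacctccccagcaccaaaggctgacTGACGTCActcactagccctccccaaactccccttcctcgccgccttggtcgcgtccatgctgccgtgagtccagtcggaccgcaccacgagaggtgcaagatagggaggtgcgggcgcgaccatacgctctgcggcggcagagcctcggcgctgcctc
Rab3b: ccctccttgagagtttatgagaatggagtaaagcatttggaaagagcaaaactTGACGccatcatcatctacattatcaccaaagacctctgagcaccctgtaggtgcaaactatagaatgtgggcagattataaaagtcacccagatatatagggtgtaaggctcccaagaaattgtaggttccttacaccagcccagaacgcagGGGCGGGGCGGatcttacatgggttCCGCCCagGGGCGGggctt
The Vamp1 window held 1 match, a GC box. Cplx1 held TGGGAA and a GC box, and Syn1 held TCAGCAC and 2 overlapping TGACG matches on opposite strands. Rab3b held TGACG and 4 GC boxes, of which 2 overlap.

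The table gave 44 windows for 33 of the 39 members. TGGGAA was found in 18.2% of these windows and in 21.6% of all 32851 windows of the same length. The share for TGACG was 20.5% against 17.8% and for TCAGCAC 2.27% against 4.23%. GGGCGG was found in 56.8% against 32.7%, and the member windows also had more G and C, with a median of 61.0% against 52.4%. A match describes the letters of the window and does not show that a protein binds there.

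Among the SNARE proteins, Vamp1 and Snap25 had higher values in cello, and Vamp2 and Stx1a were nearly level. Vamp1, which encodes the vesicle SNARE synaptobrevin 1, measured 42.4 and 75.1 CPM in wild-type cochleae against 121 and 111 CPM in cello cochleae. Both cello libraries lay above both wild-type libraries, with a log2 fold change of 1.03 (SE 0.27; limma, unadjusted p = 0.011, adjusted p = 0.421) that was 0.62 without wild-type replicate 1. DESeq2 gave Vamp1 an adjusted p of 0.011 and edgeR one of 0.451. Snap25, the plasma membrane SNARE of most neurons, gave 26.2 and 82.1 CPM in wild-type tissue and 126 and 132 CPM in cello tissue. Its gap within wild-type (1.63 on the log2 scale) was larger than its log2 fold change of 1.47 (SE 0.51; limma, unadjusted p = 0.034), which was 0.65 without wild-type replicate 1. Vamp2, which encodes synaptobrevin 2 and is also used outside neurons, measured 112 and 109 CPM in wild-type cochleae against 116 and 112 CPM in cello cochleae. Its groups lay apart only narrowly, and the 95% interval of its log2 fold change ran from -0.14 to 0.23. Stx1a, the syntaxin partner of Snap25, gave 10.1 and 9.25 CPM in wild-type tissue and 10.6 and 9.40 CPM in cello tissue, with overlapping groups.

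The Munc13 priming proteins differed little. Unc13b, the isoform gene with the highest level per kb of exon, stood at 92.7, 83.2, 103 and 84.9 CPM in wild-type replicates 1 and 2 and cello replicates 1 and 2. Unc13a, the main neuronal isoform gene, had a log2 fold change of 0.32 (SE 0.16) and Unc13c one of -0.05 (SE 0.17). The 2 complexins, small proteins that clamp and then promote fusion, differed from each other. Cplx1 measured 29.9 and 112 CPM in wild-type cochleae against 146 and 177 CPM in cello cochleae, and Cplx2 measured 28.6 and 46.9 CPM in wild-type cochleae against 26.0 and 41.0 CPM in cello cochleae. Both genes were lower in replicate 1 than in replicate 2 of wild-type, and only for Cplx1 did both cello libraries exceed both wild-type libraries. The log2 fold change of Cplx1 was 1.46 (SE 0.60; limma, unadjusted p = 0.056), and it was 0.52 without wild-type replicate 1. That of Cplx2 was -0.16 (SE 0.31). Nsf, the ATPase that takes SNARE complexes apart, gave 42.6 and 65.4 CPM in wild-type tissue and 70.2 and 71.6 CPM in cello tissue. Napb, the neuronal adaptor of Nsf known as beta-SNAP, measured 11.2 and 21.7 CPM in wild-type cochleae against 30.6 and 34.8 CPM in cello cochleae, a log2 fold change of 1.04 (SE 0.31; limma, unadjusted p = 0.018). For Napb both cello libraries lay above both wild-type libraries, and the value was 0.58 without wild-type replicate 1.

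The calcium sensors also differed from each other. Log2 fold changes lay above 0 for 3 genes and below 0 for 1, beside 43.4% of all genes tested above 0. Syt2, the synaptotagmin of fast auditory and motor synapses, gave 8.37 and 24.1 CPM in wild-type tissue and 38.6 and 38.2 CPM in cello tissue. The 2 cello libraries were nearly equal and above both wild-type libraries, with a log2 fold change of 1.40 (SE 0.47; limma, unadjusted p = 0.029) that was 0.66 without wild-type replicate 1. Syt1, the main synaptotagmin of forebrain synapses, measured 34.1 and 45.9 CPM in wild-type cochleae against 21.1 and 40.3 CPM in cello cochleae. Its groups overlapped, and its lowest value was in cello replicate 1. Syt4, a synaptotagmin that binds calcium poorly, gave 15.4 and 20.6 CPM in wild-type tissue and 18.4 and 20.9 CPM in cello tissue. Rph3a, which encodes the Rab3 effector rabphilin, measured 4.73 and 19.7 CPM in wild-type cochleae against 13.2 and 25.3 CPM in cello cochleae. The groups of Rph3a overlapped, and its log2 fold change of 0.87 (SE 0.68) was -0.10 without wild-type replicate 1.

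Among the 12 proteins of the vesicle itself, 10 had fold changes above 0, beside 43.4% of all genes. The groups lay apart and higher for 7 and apart and lower for 2, beside 16.9% and 28.7% of all genes. The synapsins tether vesicles in the reserve pool. Syn1 gave 3.52 and 13.1 CPM in wild-type tissue and 15.5 and 18.2 CPM in cello tissue, and Syp, which encodes synaptophysin, a major membrane protein of the vesicle, 8.11 and 27.3 CPM against 30.9 and 36.6 CPM. For both genes wild-type replicate 2 lay much closer to the cello libraries than to wild-type replicate 1, and the log2 fold changes of 1.23 (Syn1) and 1.14 (Syp) were 0.35 and 0.30 without that replicate. Syn2 measured 7.54 and 12.3 CPM in wild-type cochleae against 13.5 and 18.0 CPM in cello cochleae, a log2 fold change of 0.66 (SE 0.27; limma, unadjusted p = 0.054) that was 0.33 without wild-type replicate 1. Syn3 stood between 3.5 and 5.63 CPM with overlapping groups. Its exons share 14.1% of their length with Timp3, an abundant gene on the opposite strand, and the strand setting of the counting is not stated in the sources used here.

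The Sv2 proteins are vesicle glycoproteins that bind synaptotagmin. Sv2b gave 9.01 and 16.5 CPM in wild-type tissue and 22.3 and 22.6 CPM in cello tissue, a log2 fold change of 0.85 (SE 0.28; limma, unadjusted p = 0.027). Sv2a measured 15.1 and 32.4 CPM in wild-type cochleae against 33.9 and 37.9 CPM in cello cochleae, and Sv2c 10.8 and 22.5 CPM against 27.4 and 25.7 CPM. All 3 Sv2 genes had both cello libraries above both wild-type libraries, and without wild-type replicate 1 their log2 fold changes were 0.43 (Sv2b), 0.14 (Sv2a) and 0.23 (Sv2c). Of the synaptogyrins, 4-span vesicle membrane proteins, Syngr3 gave 1.61 and 5.46 CPM in wild-type tissue and 5.39 and 8.95 CPM in cello tissue with overlapping groups. Syngr1 measured 60.3 and 70.6 CPM in wild-type cochleae against 57.0 and 56.6 CPM in cello cochleae, with both cello libraries below both wild-type libraries and a log2 fold change of -0.20 (SE 0.10; limma, unadjusted p = 0.102).

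The Rab3 GTPases mark vesicles that are ready to dock, and the 3 member genes had 3 different patterns. Rab3b gave 6.84 and 7.19 CPM in wild-type tissue and 2.90 and 3.22 CPM in cello tissue. The wild-type mean was 7.01 ± 0.247 CPM and the cello mean 3.06 ± 0.231 CPM (SD, n = 2), a ratio of 2.29. The 2 libraries of each genotype were close to each other and the groups lay well apart. Its log2 fold change was -1.08 (SE 0.16; limma, unadjusted p = 8.5e-04, adjusted p = 0.419), the smallest unadjusted p of the 39 members, and it was -1.11 without wild-type replicate 1. DESeq2 gave an adjusted p of 0.0043 and edgeR one of 0.451. Rab3b, whose start site window is printed above, differed in the opposite direction from most members. Of the 10 hair cell markers, 7 likewise had both cello libraries below both wild-type libraries, beside 28.7% of all genes tested. The 3 others overlapped between genotypes, with log2 fold changes of 0.04 (Myo7a), 0.03 (Otof) and -0.22 (Chrna9). The part of hair cell content in the Rab3b difference was not tested. An antisense gene covers 9.0% of the exon length of Rab3b, and that gene was listed at 0 CPM in all 4 libraries.

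Rab3c measured 4.73 and 11.0 CPM in wild-type cochleae against 14.5 and 20.2 CPM in cello cochleae, with both cello libraries above both wild-type libraries and a log2 fold change of 1.19 (SE 0.40; limma, unadjusted p = 0.029). It was 0.62 without wild-type replicate 1. Rab3a, the main neuronal member, gave 25.0 and 46.4 CPM in wild-type tissue and 47.7 and 44.5 CPM in cello tissue. Only wild-type replicate 1 stood apart for Rab3a, and its log2 fold change of 0.43 (SE 0.29) was -0.01 without that library.

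Both vesicular glutamate transporter genes of neurons had higher values in cello. Slc17a7, which encodes VGLUT1, measured 10.1 and 37.6 CPM in wild-type cochleae against 54.5 and 51.3 CPM in cello cochleae, and Slc17a6, which encodes VGLUT2, 4.22 and 11.3 CPM against 13.0 and 17.9 CPM. For both, all cello values lay above all wild-type values and wild-type replicate 2 was closer to cello than to wild-type replicate 1. The log2 fold changes were 1.41 (SE 0.58) for Slc17a7 and 1.07 (SE 0.45) for Slc17a6, and 0.49 and 0.41 without wild-type replicate 1. Slc17a8, the transporter gene of inner hair cells and no member here, had lower values, with 18.9 and 19.5 CPM for wild-type against 16.1 and 13.3 CPM for cello (log2 fold change -0.38, SE 0.13).

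All 5 active zone genes had log2 fold changes above 0, beside 43.4% of all genes tested. Each had its lowest value in wild-type replicate 1, and their median of 0.53 was 0.26 without that library. Bsn and Pclo encode bassoon and piccolo, the giant scaffolds of the active zone that are also found at the hair cell ribbon. Bsn gave 5.29 and 8.68 CPM in wild-type tissue and 11.5 and 12.8 CPM in cello tissue, with a log2 fold change of 0.79 (SE 0.24; limma, unadjusted p = 0.022) that was 0.46 without wild-type replicate 1. Rims1, which encodes a scaffold that links Rab3 to Munc13 and calcium channels, measured 3.60 and 7.62 CPM in wild-type cochleae against 9.16 and 12.5 CPM in cello cochleae, with a log2 fold change of 0.96 (SE 0.36; limma, unadjusted p = 0.043). For Bsn and Rims1 both cello libraries lay above both wild-type libraries, and the Rims1 value was 0.46 without wild-type replicate 1. Pclo stood at 8.73, 11.9, 11.9 and 16.3 CPM and Erc2, which encodes the scaffold CAST, at 7.76, 11.5, 11.5 and 16.6 CPM in the order wild-type replicates 1 and 2, cello replicates 1 and 2. In these 2 genes wild-type replicate 2 and cello replicate 1 were almost equal. Rims2, the RIM gene also used in hair cells, gave 3.72 and 4.70 CPM in wild-type tissue and 4.52 and 6.59 CPM in cello tissue, with overlapping groups.

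The 5 endocytosis genes all lay apart and higher, beside 16.9% of all genes tested. Synj1 encodes synaptojanin 1, the lipid phosphatase that uncoats retrieved vesicles, and measured 44.5 and 50.2 CPM in wild-type cochleae against 63.3 and 60.7 CPM in cello cochleae. Its log2 fold change was 0.39 (SE 0.09; limma, unadjusted p = 0.00756, adjusted p = 0.419), it was 0.30 without wild-type replicate 1, and its gap within wild-type was 0.17. Synj1 had the smallest unadjusted p among members with higher values. Dnm1 encodes dynamin 1, the neuronal GTPase that cuts vesicles from the membrane, and gave 62.4 and 79.4 CPM in wild-type tissue and 95.8 and 89.4 CPM in cello tissue (log2 fold change 0.39, SE 0.13; limma, unadjusted p = 0.030), and its value was 0.22 without wild-type replicate 1. Snap91 and Amph encode the clathrin adaptor AP180 and amphiphysin, and Sh3gl2 encodes endophilin A1, which bends the membrane. Their log2 fold changes were 0.59 (SE 0.26), 0.58 (SE 0.24) and 0.43 (SE 0.20), and each had its lowest value in wild-type replicate 1. Without that library they were 0.22 (Snap91), 0.23 (Amph) and 0.13 (Sh3gl2).

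**Figure D3:**
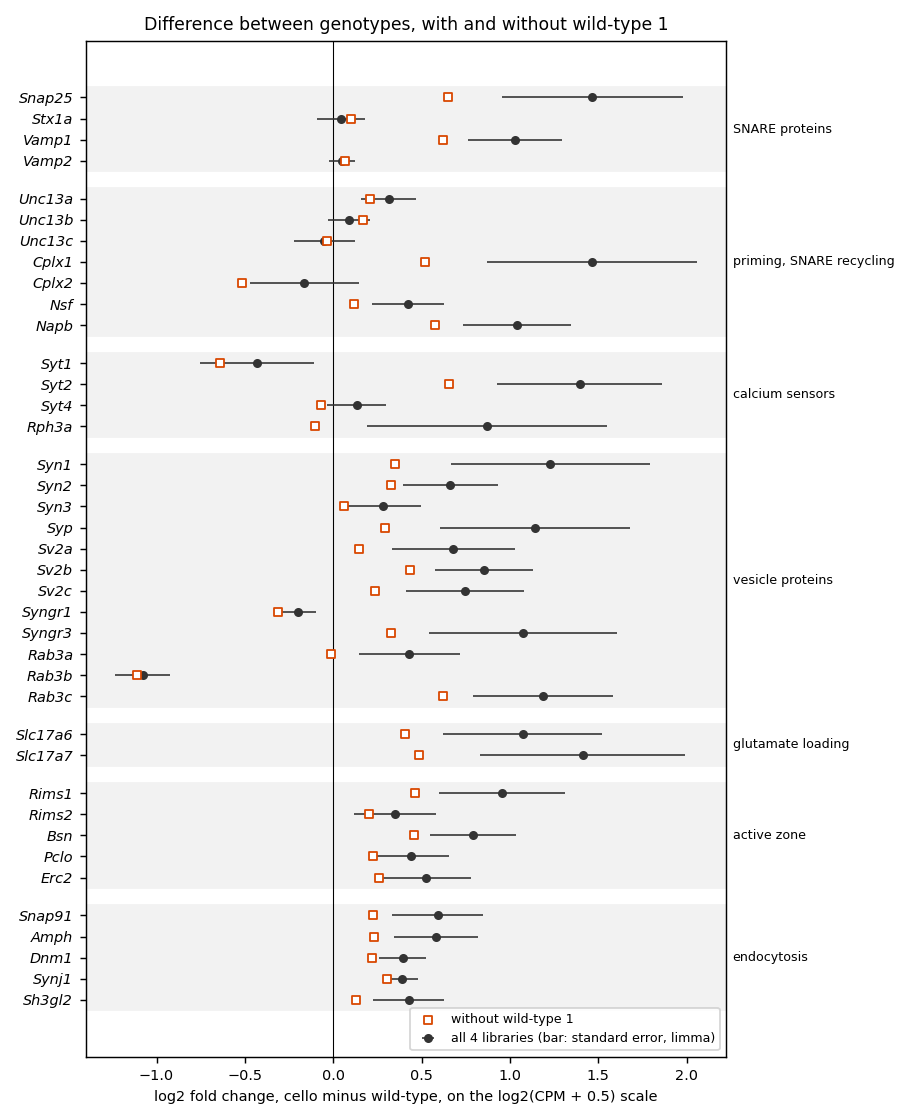
Log2 fold change, cello minus wild-type, of each of the 39 genes (horizontal axis, on the log2(CPM + 0.5) scale), fitted in limma with all 4 libraries (filled circle, bar of 1 standard error) and without wild-type replicate 1 (open square). The open squares lie closer to 0 than the circles for most genes with higher values, and the 2 symbols nearly coincide for Rab3b (-1.08 and -1.11).

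Paralogs were compared by their shares within each library, among the members of a family only. A share cancels an amount common to the paralogs of a family, and it can still move with nerve content where 1 paralog is also used outside neurons. Shares were computed from CPM per kb of merged exon, and no test was made with 2 libraries a group. Vamp1 made up 12.4% and 20.6% of the summed Vamp1 and Vamp2 level for wild-type, against 28.1% and 27.0% in cello. Cplx1 made up 70.2% and 84.3% of the 2 complexins for wild-type, against 92.7% and 90.7% for cello. Syt2 made up 12.0% and 22.7% of the 3 synaptotagmins for wild-type, against 41.0% and 32.9% for cello. In these 3 families the gene with the larger share in cello also differed between the wild-type libraries, with the lower share in replicate 1.

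The ratio of Syt2 to Syt1, both per kb, was 0.268 and 0.575 for wild-type against 1.99 and 1.03 for cello. Syt1 was thus the higher of the 2 in each wild-type library and Syt2 the higher in each cello library, by a narrow margin in replicate 2. On raw CPM, without division by length, the order in cello replicate 2 was the reverse, with Syt1 at 40.6% and Syt2 at 38.4% of the 3 synaptotagmins. Rab3b made up 14.3% and 8.57% of the summed Rab3a, Rab3b and Rab3c level for wild-type, against 3.5% and 4.05% for cello. Of that sum Rab3a held between 82.8% and 91.4% in every library. Rab3d, no member here, was left out of the sum and stood at 20.3 and 21.8 CPM for wild-type and 17.2 and 21.2 CPM for cello. Rims1 made up 57.7% and 69.6% of the summed Rims1 and Rims2 level for wild-type, against 74.1% and 72.7% for cello. Rims3 and Rims4, which are not members, were left out of that sum. Rims3 stood at 11.5 and 21.1 CPM for wild-type and 19.9 and 30.2 CPM for cello, above Rims1 in every library, and Rims4 lay below Rims1. The make-up of the Sv2 and Slc17a families differed less between libraries. Sv2a held 59.9% and 62.0% of the Sv2 level for wild-type, against 57.1% and 60.5% for cello, and Slc17a7 held 70.5% and 76.9% of the 2 transporters for wild-type, against 80.8% and 74.2% for cello.

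**Figure D4:**
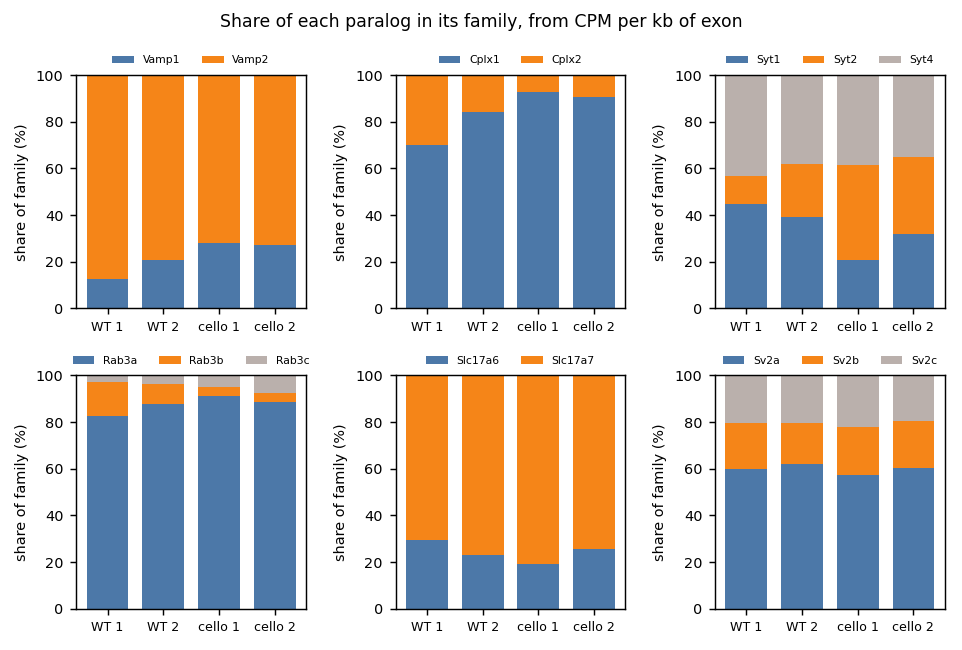
Stacked bars of the share (percent, from CPM per kb of exon) of each paralog among the members of 6 families, 1 bar per library, with WT for wild-type. The Vamp1, Cplx1 and Syt2 shares are higher in both cello libraries than in both wild-type libraries, and the Slc17a7 and Sv2a shares overlap between genotypes.

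Per kb of merged exon, the order of the members was led by Cplx1 and Vamp2. Averaged over the 4 libraries, Cplx1 stood at 53.1 CPM per kb, Vamp2 at 29.4, Rab3a at 18.4, Dnm1 at 15.6 and Snap25 at 13.5, and the lowest were Rims2 at 0.470 and Syn3 at 0.383. In wild-type replicate 1 the leading gene was Vamp2 (29.3 CPM per kb, against 13.7 for Cplx1), and in the 3 other libraries it was Cplx1. Merged exons count every annotated isoform, so a gene with long, little used ends has a low level on this scale.

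The members were also set against the neuronal markers of their own library. Each library was shifted by the median log2 level of the 15 tested neuronal markers, which lay at -1.64 and 0.36 (wild-type) and 0.30 and 0.98 (cello) about their mean. The shift takes the same amount from the fold change of every gene, so the order of the members stays as it was. On this scale 4 members lay above 0 and 35 below, with a median of -0.70, beside a median of -1.31 and 0.577% above 0 over all genes tested. The neuronal markers themselves had a median of -0.25 on this scale, with 6 above 0 and 9 below. The 4 members above 0 were Snap25 (0.19), Cplx1 (0.18), Slc17a7 (0.13) and Syt2 (0.12), and Syn1 (-0.05), Rab3c (-0.09) and Syp (-0.14) came next. The lowest were Rab3b (-2.36), Syt1 (-1.71), Syngr1 (-1.48) and Cplx2 (-1.44). By limma 0 members passed on this scale, over all genes tested.

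The other genes of the pathway were described with a list of 95 genes, of which 88 were tested. By limma 0 were called in either direction, and at an unadjusted p under 0.05 there were 15 higher and 5 lower of the 88, beside 4.42% and 6.47% of all genes tested, so that the lower count was near the background. Their median log2 fold change was 0.07 (0.02 without wild-type replicate 1), and 52 of 88 lay above 0, beside 43.4% of all genes. The 2 with the smallest unadjusted p among those with higher values were Ppfia4, which encodes the scaffold liprin-alpha 4, and Cacna1a, the pore subunit gene of the P/Q calcium channel of fast synapses. Ppfia4 measured 12.2 and 14.3 CPM in wild-type cochleae against 17.8 and 20.0 CPM in cello cochleae (log2 fold change 0.50, SE 0.13). Cacna1a gave 4.89 and 7.80 CPM in wild-type tissue and 10.7 and 13.3 CPM in cello tissue (log2 fold change 0.90, SE 0.25). Both had all cello values above all wild-type values.

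Of the lower ones, the 2 with the smallest unadjusted p were Synj2, the widely expressed paralog of Synj1, and Slc17a8, given above. Synj2 measured 51.1 and 50.2 CPM in wild-type cochleae against 44.4 and 40.3 CPM in cello cochleae (log2 fold change -0.26, SE 0.09), the opposite direction from Synj1. Both Synj2 and Slc17a8 had all cello values below all wild-type values. The 22 tested active zone genes had a median of 0.30 with 18 above 0, among them Cacnb4 (0.71). The 21 tested fusion genes had a median of 0.03, with Syt7, a synaptotagmin gene, at 1.23. The 19 tested vesicle genes had a median of 0.07, with Atp6v1g2, a neuronal subunit gene of the vesicle proton pump, at 0.98, and the 26 tested endocytosis genes a median of -0.00, with Dnm3 at 0.55 and the clathrin adaptor gene Picalm at 0.22.

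Other cells that could bring presynaptic RNA were followed with 3 marker lists. Of 5 efferent markers, Chat was at 0 in all 4 libraries and Slc18a3 at 0 in 3, Slc5a7 lay between 0.822 and 1.22 CPM, and the 5 summed to between 1.37 and 2.38 CPM. The 4 markers of inhibitory neurons summed to 2.86 and 6.05 CPM in wild-type and to 2.12 and 3.24 CPM in cello. The 8 brain markers summed to 98.9, 113, 101 and 127 CPM in the order wild-type replicates 1 and 2, cello replicates 1 and 2. In that order Slc1a2, the most abundant of them, gave 69.0, 63.8, 80.8 and 101 CPM, and was lowest in wild-type replicate 2. Mobp gave 2.70, 4.77, 0.895 and 0.864 CPM, Gfap 2.86, 10.6, 2.36 and 3.29 CPM and Olig1 0.302, 2.18, 0.212 and 0.400 CPM. Gfap and Olig1 were highest in wild-type replicate 2. Gabra6 (0.451 CPM) and Neurod6 (0.166 CPM) had reads only in wild-type replicate 2. The part of such reads in the higher member values of wild-type replicate 2 over replicate 1 was not tested. Since 0 reads is compatible with up to 3, the Chat level may reach 0.0603 to 0.0712 CPM, counting error only.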

How the data were processed

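Per the labels' protocols, total RNA of each whole cochlea sample went through a TruSeq library preparation. Reads were mapped by TopHat on GRCm38, per the submitters' processing notes. The authors deposited a table of CPM per library, which sums to its full scale only with 5 entries that name no gene, and the read counter, its strand setting and its annotation were not stated. Those 5 entries took 27.2% to 30.0% of alignments and entered no test. Dividing by the value of 1 read turned 100% of values into whole reads (tolerance 0.001 of a read). Symbols and positions were found for 36504 of 37239 identifiers in the GENCODE M21 annotation.

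The 14721 genes that reached 1 CPM in 2 or more libraries, all 39 members included, were tested as log2(CPM + 0.5) by genotype with limma-trend (limma 3.58.1, R 4.3.3). Tests were two-sided, Benjamini-Hochberg adjustment ran over all of these genes, and the threshold was 0.05. Permuting 2 against 2 libraries is too coarse to pass any threshold and was not used. The recovered reads were tested with edgeR 4.0.16 (quasi-likelihood) and DESeq2 1.42.0 as alternatives. The pseudocount (0.1 or 1), the filter (none, or a mean of 5 CPM), the scaling (TMM, median of ratios, leaving out haemoglobin and mitochondrial genes, a shift by neuronal markers), the trend, a replicate block and the left-out library were also varied. The members and lists were chosen with earlier results of these data known. Every member is named, with fold change, SE and p for the 12 of smallest unadjusted p. Up to 3 genes of each other list are named by smallest p. Further statistics, among them those of Cplx1 and the Slc17a genes, and the brain, inhibitory and efferent genes named by level were chosen after their values were seen. The statistical steps were tested on simulated data. Python 3.11.15, pandas 2.3.3 and matplotlib 3.10.9 served for the other steps.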

Additional observations from a re-analysis of the deposited data

How the results depend on the processing

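The median log2 fold change of the members stayed above 0 in every alternative except the shift by neuronal markers, where it was -0.70, and ranged from 0.23 to 0.93 with 1 library left out. Genes called over all genes were 0 in limma and in edgeR with all libraries (1603 and 1463 at an unadjusted p under 0.05), 195 in DESeq2, and 0 to 90 with 1 library left out. Members called higher were 1 in DESeq2 and 0 to 8 with 1 library left out, and members called lower were 1 in DESeq2 and 0 elsewhere (0 to 0 with 1 library left out). The 90 genes, all higher, and the 8 members (Snap25, Vamp1, Cplx1, Napb, Syt2, Syn1, Syp and Slc17a7) were called without wild-type replicate 2, where replicate 1 stands alone for wild-type and is assumed to vary like the cello libraries. The smallest adjusted p over all genes was then 0.0184, and without wild-type replicate 1 it was 0.931.

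With the replicate number as a block, 0 genes were called, the median of the members was 0.58 and no call changed. The deviations of same-numbered libraries correlated at 0.133 across genes, and the labels do not say that a number marks a shared litter, so the libraries share only a number.

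Of 621 single-member values under the alternatives, 571 kept direction and call, 40 changed sign and 10 passed the threshold. The shift by neuronal markers, which lowers every fold change by construction, turned 30 of them: Stx1a (-1.24), Vamp1 (-0.25), Vamp2 (-1.23), Unc13a (-0.96), Unc13b (-1.19), Nsf (-0.86), Napb (-0.24), Syt4 (-1.15), Rph3a (-0.41), Syn1 (-0.050), Syn2 (-0.62), Syn3 (-0.999), Syp (-0.14), Sv2a (-0.60), Sv2b (-0.43), Sv2c (-0.53), Syngr3 (-0.21), Rab3a (-0.85), Rab3c (-0.092), Slc17a6 (-0.21), Rims1 (-0.32), Rims2 (-0.93), Bsn (-0.49), Pclo (-0.84), Erc2 (-0.75), Snap91 (-0.69), Amph (-0.70), Dnm1 (-0.89), Synj1 (-0.89) and Sh3gl2 (-0.85). The other 10 turned with 1 library left out, among 8 genes whose values then ranged from -0.037 to 0.13 (Stx1a), -0.048 to 0.23 (Unc13b), -0.18 to 0.079 (Unc13c), -0.52 to 0.19 (Cplx2), -0.89 to 0.029 (Syt1), -0.069 to 0.33 (Syt4), -0.10 to 1.85 (Rph3a) and -0.011 to 0.87 (Rab3a). The library was cello replicate 1 for Stx1a, Unc13b, Unc13c, Cplx2 and Syt1, wild-type replicate 1 for Syt4, Rph3a and Rab3a, and wild-type replicate 2 for Stx1a and Cplx2. From raw CPM in place of CPM per kb, the Vamp1 share differed between genotypes by 16.2 percentage points (11.1 per kb) and the Cplx1 share by 22.2 (14.4 per kb), since raw CPM weight each gene by its length. With 2 libraries a group, precision was limited by the spread between libraries.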
